A study of Homo sapiens with 11 samples.

Results

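SK-N-BE(2)-C neuroblastoma cells were compared after 6 d (144 h) in 500 nM vorinostat with cells kept for the same time in the solvent, DMSO. The comparison rested on 5 of the 11 arrays of the series, chosen by their titles: 3 solvent controls (replicates 1, 2 and 3) and 2 vorinostat cultures (replicates 2 and 3). The remaining 6 arrays held the same treatments after 24 h. They served for the test of a difference between the times and, in the same fit, for the estimate of the spread. SK-N-BE(2)-C is an established line that grew from a relapsed neuroblastoma and carries amplified MYCN, so that all groups share this lesion and a single genetic background. Total RNA was amplified, labelled with biotin and hybridised to Illumina whole-genome BeadChips, and all 5 arrays of 6 d lay on 1 BeadChip by their array names. The protocol text of the study describes the arrays of 24 h. The 500 nM is the dose it gives for these, and the titles of the 6 d arrays name none. Whether medium or drug was renewed during the 6 d is not given in the sources used here. Whether the numbered replicates were separate cultures at 6 d is not stated either. The p-values measure the spread between arrays within the groups, shared over all 11 arrays.

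Vorinostat is an inhibitor of histone deacetylases (HDACs), the enzymes that take acetyl groups off histones and other proteins. HDAC inhibitors raise and lower many transcripts, and in neuroblastoma, a tumour of the sympathetic nervous lineage, they are studied for their effects on cell death, differentiation and autophagy. Sympathetic cells make noradrenaline from tyrosine, store it in granules with neuropeptides and take it up again from outside. The values below are log2 of the normalised intensity of a probe, 1 probe per gene, with the background of the array not subtracted, so that differences of dim genes are compressed. A gene was called at an adjusted p under 0.05 in limma, with the Benjamini-Hochberg adjustment over all genes tested.

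The 5 arrays carried the expression of a noradrenergic neuroblastoma. PHOX2A, HAND2, ISL1, GATA3, DBH, TH, CHGA, STMN2 and MYCN were detected on all 5 arrays, while CDH1 (epithelium), PTPRC and CD3E (blood), SOX10 (Schwann cells), PECAM1 (endothelium) and PDGFRA (fibroblasts) were detected on none. EPCAM was detected on the 3 solvent arrays only, at 6.98 to 7.11, beside 6.79 and 6.90 on the vorinostat arrays. PDGFRB was detected on all 5. Correlations between arrays over the genes tested were 0.984 to 0.990 within the solvent group, 0.990 between the vorinostat arrays and 0.973 to 0.988 between the groups. Solvent replicate 3 lay nearest to the treated cultures: on the leading axis of variation among the 5 arrays (55.8% of the variance) the solvent arrays stood at -13.0, -15.7 and -2.19 and the vorinostat arrays at 16.9 and 14.0. More probes were detected on the solvent arrays (17444 to 18159) than on the vorinostat arrays (16346 and 16841), and the part of this gap in the results was not tested. Genes known to answer HDAC inhibitors gave no common direction. Of 5 measured, H2BC12, a histone H2B gene, rose, TXNIP fell, and CDKN1A, MT1X and H2BC21 were not called. Over all 11 arrays the leading axis (39.0% of the variance) went against an order by treatment. The solvent arrays of 24 h stood at -19.3 to -16.2 and the vorinostat arrays of 6 d at -9.01 and -7.64, while the vorinostat arrays of 24 h stood at 8.35 to 12.3 and the solvent arrays of 6 d at 5.02 to 18.1. The direction of every change at 6 d therefore rests on the deposited labels. An exchange of the labels of the 6 d groups was not tested and would turn each direction given below.

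Of 9697 genes tested, 426 were higher and 796 were lower in vorinostat after 6 d, which is 4.39% and 8.21% of the genes. At an unadjusted p under 0.05 there were 2624. The median difference over all genes was -0.02 on the log2 scale. Most called changes were small, with a median of 0.46 for rises and -0.50 for falls, and 5 genes lay above 1 and 40 below -1. The arrays of the groups did not overlap for 3811 genes, or 39.3%, so that an absence of overlap was common. The calls leaned on the vorinostat arrays: with replicate 2 left out 105 genes were higher and 232 lower, and with replicate 3 left out 207 and 538, the lone array being assumed to vary like the other groups. Without solvent replicate 1 the counts were 190 and 478, and without solvent replicate 3 they were 568 and 914. With the 5 arrays of 6 d fitted alone, the counts were 145 and 405.

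**Figure D1:**
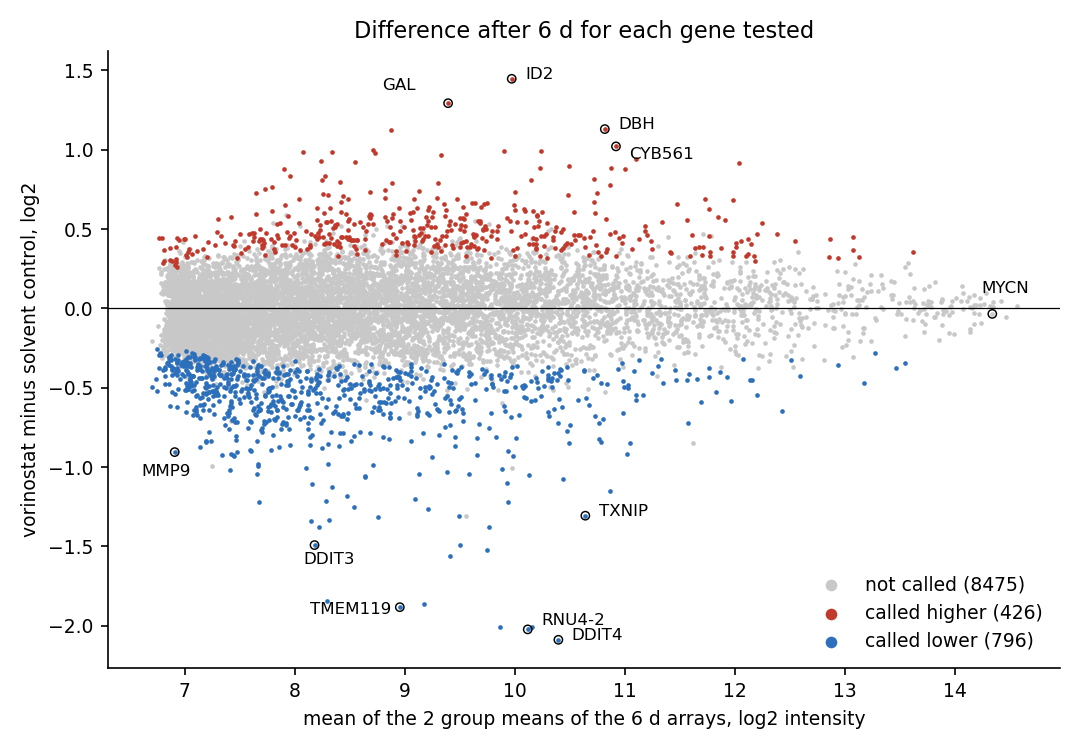
Difference between vorinostat and the solvent control after 6 d (vertical axis, log2) against the mean level (horizontal axis, log2 intensity) for the 9697 genes tested, with called genes coloured and 11 genes ringed and named. The 426 rises stay mostly under 1, the falls reach -2.09 in DDIT4, and MYCN, among the brightest genes, lies near 0.

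The deepest fall among called genes detected on all 5 arrays was that of DDIT4, an inhibitor of mTORC1 that cells induce under stress. Its level was 11.47, 12.01 and 10.83 on the solvent arrays and 9.33 and 9.37 on the vorinostat arrays. The lowest solvent array thus stood above both vorinostat arrays, and the difference of -2.09 ± 0.23 (SE) was a 4.25-fold lower signal (adjusted p = 9.9e-05). DDIT3 (CHOP), a transcription factor of the endoplasmic reticulum and amino acid stress responses, read 9.11, 9.22 and 8.43 against 7.43 and 7.44. The vorinostat arrays were nearly equal and the solvent arrays all higher, for a 2.81-fold lower signal (log2 difference -1.49 ± 0.17, adjusted p = 1.0e-04). The neighbouring genes of this response followed the same direction. TRIB3, a pseudokinase induced downstream of DDIT3, read 8.92, 10.00 and 8.57 against 7.76 and 8.06 (-1.25 ± 0.26, adjusted p = 0.0054). PCK2, the mitochondrial phosphoenolpyruvate carboxykinase, read 10.28, 11.30 and 10.04 against 9.37 and 9.28 (-1.22 ± 0.23, adjusted p = 0.0027). In both, solvent replicate 2 was the highest array.

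Such genes are induced through ATF4, a transcription factor whose translation goes up when the initiation factor eIF2 is phosphorylated. ATF4 binds composite sites together with C/EBP proteins and so raises amino acid transporters, synthetases and aminoacyl-tRNA synthetases. Of 33 measured genes of this list, 16 were called lower and 0 higher. That share was 48.5%, beside 8.21% of all genes, and the median difference was -0.43. The called members in the amino acid supply were ASNS (asparagine synthetase, -1.15), PSAT1 (serine synthesis, -0.66), the transporter pair SLC7A5 (-0.84) and SLC3A2 (-0.71), and AARS1 (alanyl-tRNA synthetase, -0.59). The mitochondrial folate enzymes SHMT2 (-0.50) and MTHFD2 (-0.45) fell by less. Among regulators, CEBPB (-0.68), CEBPG (-0.44) and PPP1R15A (-0.43), the phosphatase subunit that reverses eIF2 phosphorylation, were lower. The secreted hormone STC2 (-1.04) and the lipoprotein receptor VLDLR completed the called set. The call of PSAT1 was lost in 9 and that of MTHFD2 in 7 of the 15 alternatives other than the methods' analysis of variance. That test called no gene after adjustment and is left out of such counts below. VLDLR was not detected on the vorinostat arrays, which makes its change at least 1.52-fold. The transcript of ATF4 itself missed the threshold, at -0.32 with an adjusted p of 0.054, and EIF4EBP1, at -0.01, and PHGDH, at -0.27, were not called. Solvent and vorinostat arrays did not overlap for 26 of the 33 genes, 25 of them lower, beside 39.3% of all genes. Leaving out vorinostat replicate 2 left 5 of the 16 calls by count, and leaving out replicate 3 left 12, with list medians of -0.33 and -0.50.

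**Figure D2:**
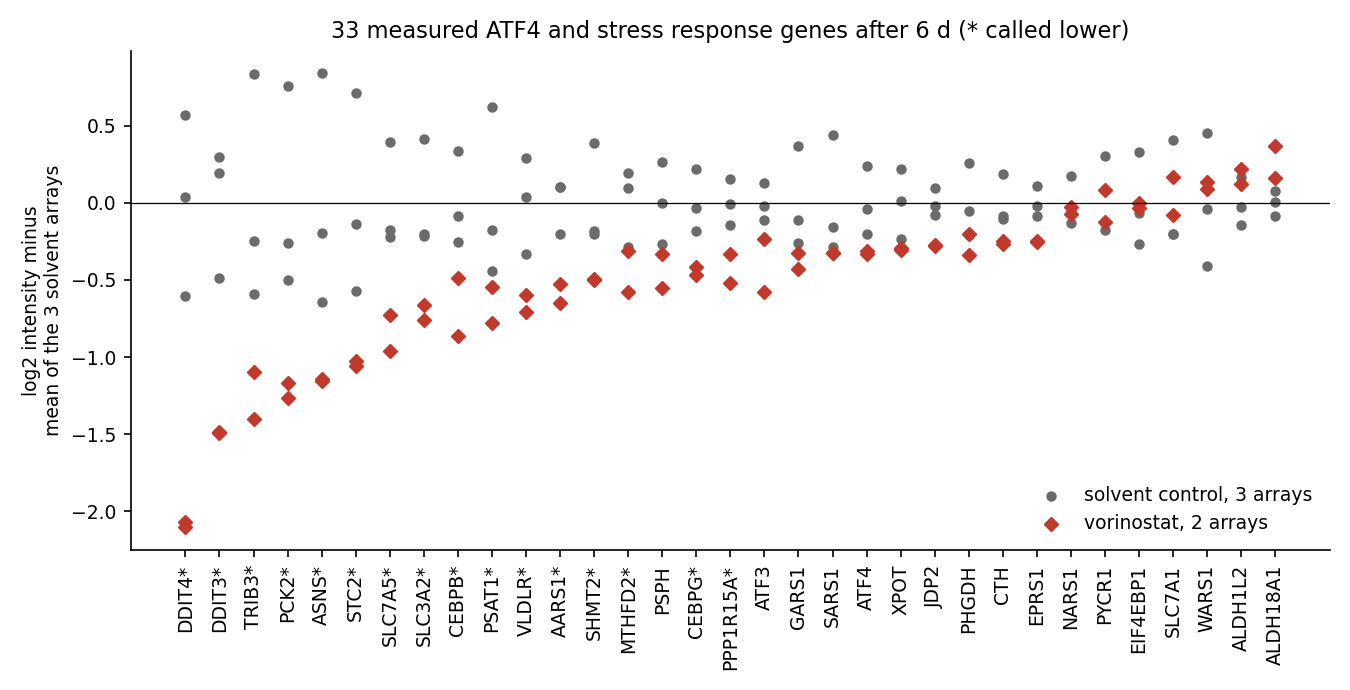
Level of the 33 measured ATF4 and stress response genes on each array of 6 d, as log2 intensity minus the mean of the 3 solvent arrays (vertical axis), genes ordered by their difference and called genes starred. The vorinostat arrays lie below the solvent arrays from DDIT4 at -2.09 to PPP1R15A at -0.43 with only small gaps in several genes, and the solvent arrays spread by more than 1 in DDIT4, TRIB3, PCK2, ASNS, STC2 and PSAT1.

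The promoters of these genes were searched for the letters of the composite C/EBP-ATF site, TGATGNAA, on both strands, from 250 bases before to 50 after the start of transcription in RefSeq (GRCh38.p14). Of the 28 measured members with a promoter, 6 held the letters, or 21.4%, against 1.75% of the 7888 genes tested that had one and 3.67% of all 27305 promoters. The list was chosen from known targets of the factor. Among the members called lower 3 of 15 held them, and among those not called 3 of 13 (ATF3, NARS1 and SLC7A1). The promoters of the 3 called genes are shown because they hold the letters, which stand in capitals, 5′ to 3′ on the strand of the gene.
ASNS, chr7:97872359-97872658, minus strand: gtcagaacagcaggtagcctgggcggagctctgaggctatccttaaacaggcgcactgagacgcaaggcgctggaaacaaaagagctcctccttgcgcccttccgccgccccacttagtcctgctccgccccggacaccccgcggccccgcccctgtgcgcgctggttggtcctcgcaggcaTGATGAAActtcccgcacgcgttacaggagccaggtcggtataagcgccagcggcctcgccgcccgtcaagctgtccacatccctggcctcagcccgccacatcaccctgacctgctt
SLC3A2, chr11:62881449-62881748, plus strand: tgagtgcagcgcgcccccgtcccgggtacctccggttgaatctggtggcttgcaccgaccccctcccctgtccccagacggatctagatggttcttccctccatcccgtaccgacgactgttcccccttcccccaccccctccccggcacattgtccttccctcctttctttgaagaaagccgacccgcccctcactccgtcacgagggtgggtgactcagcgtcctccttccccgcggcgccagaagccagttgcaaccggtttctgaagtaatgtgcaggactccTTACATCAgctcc
AARS1, chr16:70289457-70289756, minus strand: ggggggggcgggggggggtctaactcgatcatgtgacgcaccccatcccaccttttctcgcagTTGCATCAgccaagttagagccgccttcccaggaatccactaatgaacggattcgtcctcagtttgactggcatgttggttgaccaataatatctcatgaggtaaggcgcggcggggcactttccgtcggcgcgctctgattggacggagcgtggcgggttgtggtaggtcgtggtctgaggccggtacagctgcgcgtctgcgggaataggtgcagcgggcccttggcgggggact
In ASNS the site starts 68 bases before the start of transcription and reads on the strand of the gene. In SLC3A2 it starts at base 37 after the start and in AARS1 at 187 before it, both on the opposite strand, so that the printed capitals are the reverse complement. DDIT4, DDIT3, TRIB3 and PCK2, which fell further, held no such letters in these windows.

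Transcripts of the ID proteins ID1, ID2 and ID3 rose. ID proteins bind E proteins without contacting DNA, block neuronal bHLH factors, and are targets of BMP-SMAD signalling. ID2 led all rises, with 9.20, 8.85 and 9.68 on the solvent arrays and 10.79 and 10.59 on the vorinostat arrays (2.73-fold, log2 difference 1.45 ± 0.17, adjusted p = 1.0e-04), and a second ID2 probe read 1.34. The groups were apart by more than the range of the solvent arrays. ID1 read 8.50, 7.69 and 8.75 against 9.69 and 9.18 (1.12 ± 0.22, adjusted p = 0.0031), and ID3 read 9.98, 9.16 and 10.07 against 10.71 and 10.74 (0.99 ± 0.19, adjusted p = 0.0027). Solvent replicate 2 was the lowest array for all 3. Without vorinostat replicate 2, ID1 was at 0.87 and no longer called. Of 14 measured ID and BMP genes 4 were higher (28.6%, beside 4.39% of all genes), the fourth being the BMP antagonist GREM1 (0.47), and 1 was lower, the inhibitory SMAD6 (-0.48). GREM1 lost its call without either vorinostat array, and 2 rises of the list were left without vorinostat replicate 2. Of 10 measured partner and HES-type factors only BHLHE40, a repressor of the clock and hypoxia response, was called, at -0.55. DKK1, an antagonist of WNT signalling, rose by 0.99 on the log2 scale (9.53, 9.10 and 9.59 against 10.29 and 10.50, adjusted p = 0.0094), a call lost without either vorinostat array (1.09 and 0.89).

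In noradrenaline synthesis and transport 5 of 11 measured genes were called higher. DBH, the enzyme that turns dopamine into noradrenaline, read 10.21, 9.98 and 10.56 in solvent and 11.34 and 11.42 in vorinostat (2.19-fold, 1.13 ± 0.14, adjusted p = 1.8e-04). CYB561, the granule cytochrome that regenerates the ascorbate DBH consumes, read 10.00, 10.85 and 10.37 against 11.45 and 11.40 (1.02 ± 0.19, adjusted p = 0.0026), while 1 of its other probes stood at 0.02. SLC6A2, the noradrenaline transporter, read 7.78, 7.88 and 7.91 against 8.81 and 8.57 (0.84 ± 0.12, adjusted p = 5.7e-04). In all 3 genes the arrays of the groups were well apart. With DDC (aromatic amino acid decarboxylase, 0.35) and PTS (synthesis of the cofactor tetrahydrobiopterin, 0.33, adjusted p = 0.049) these were 5 rises and 0 falls, or 45.5%, beside 4.39% of all genes, and 3 remained by count without either vorinostat array. TH, which makes the rate-limiting step, was at 8.83, 9.81 and 9.43 against 9.99 and 9.83, without a call on this probe (0.55, adjusted p = 0.093) and with a call on another (0.71, adjusted p = 0.027).

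Among peptides, GAL, the precursor of galanin, read 8.95, 8.35 and 8.93 in solvent against 10.13 and 9.94 in vorinostat (2.45-fold, 1.29 ± 0.19, adjusted p = 5.5e-04). It was the only call among 14 granins and neuropeptides (7.1% higher, beside 4.39% of all genes), and CHGA (chromogranin A) stood at 0.28, not called. The core transcription factors of the lineage moved little, with 10.5% of those measured called higher, beside 4.39% of all genes. GATA2 (0.55) and TFAP2B (0.47) rose among 19 measured, PHOX2A was at 0.25, GATA3 at 0.15, HAND2 at -0.13 and ISL1 at -0.02, and none of the 19 was called without vorinostat replicate 2 or without solvent replicate 1. MYCN, the amplified oncogene of these cells, read 14.34, 14.31 and 14.41 against 14.28 and 14.36 and was not called (-0.03 ± 0.07, adjusted p = 0.82), and 0 of the 9 genes of its MAX network were. GFRA2, the receptor for neurturin, rose by 0.88 (7.56, 7.32 and 7.51 against 8.57 and 8.11), whereas MDK, the growth factor midkine, fell by 1.03 (9.83, 10.22 and 9.64 against 8.99 and 8.75). ALK, a receptor kinase of neuroblastoma, was not detected on the vorinostat arrays and was at least 1.21-fold lower, a call lost in 11 of 14 alternatives. These were the calls among 6 measured genes of the receptor list, 1 higher and 2 lower, and without vorinostat replicate 2 it held 0 rises and 1 fall. The receptor shares were 16.7% higher and 33.3% lower, beside 4.39% and 8.21% of all genes. In the protein kinase A list, 2 of 7 rose (28.6%), the inhibitor PKIA (0.73) and the regulatory subunit PRKAR1B (0.56). The median of that list was 0.09, and -0.01 without vorinostat replicate 2.

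Axonal genes went both ways, with 3 of 25 higher and 4 lower (12% and 16%, beside 4.39% and 8.21% of all genes). DCX (doublecortin), a microtubule protein of migrating neurons, read 8.64, 9.45 and 8.36 in solvent and 7.33 and 7.62 in vorinostat (-1.34 ± 0.22, adjusted p = 0.0011). NEFH (neurofilament heavy chain, -0.48), MAPT (tau, -0.40, with another probe at -0.09) and STMN2 (-0.34) also fell, while STMN1 (0.46, with another probe at 0.01) and the RNA-binding ELAVL4 (0.44) rose. No rise of this list was called without solvent replicate 1 or 2 or without either vorinostat array, and 1 fall was left without vorinostat replicate 2. The complexin CPLX1 (-0.36) was the only call of 18 synaptic vesicle genes (5.6% lower, beside 8.21% of all genes).

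**Figure D3:**
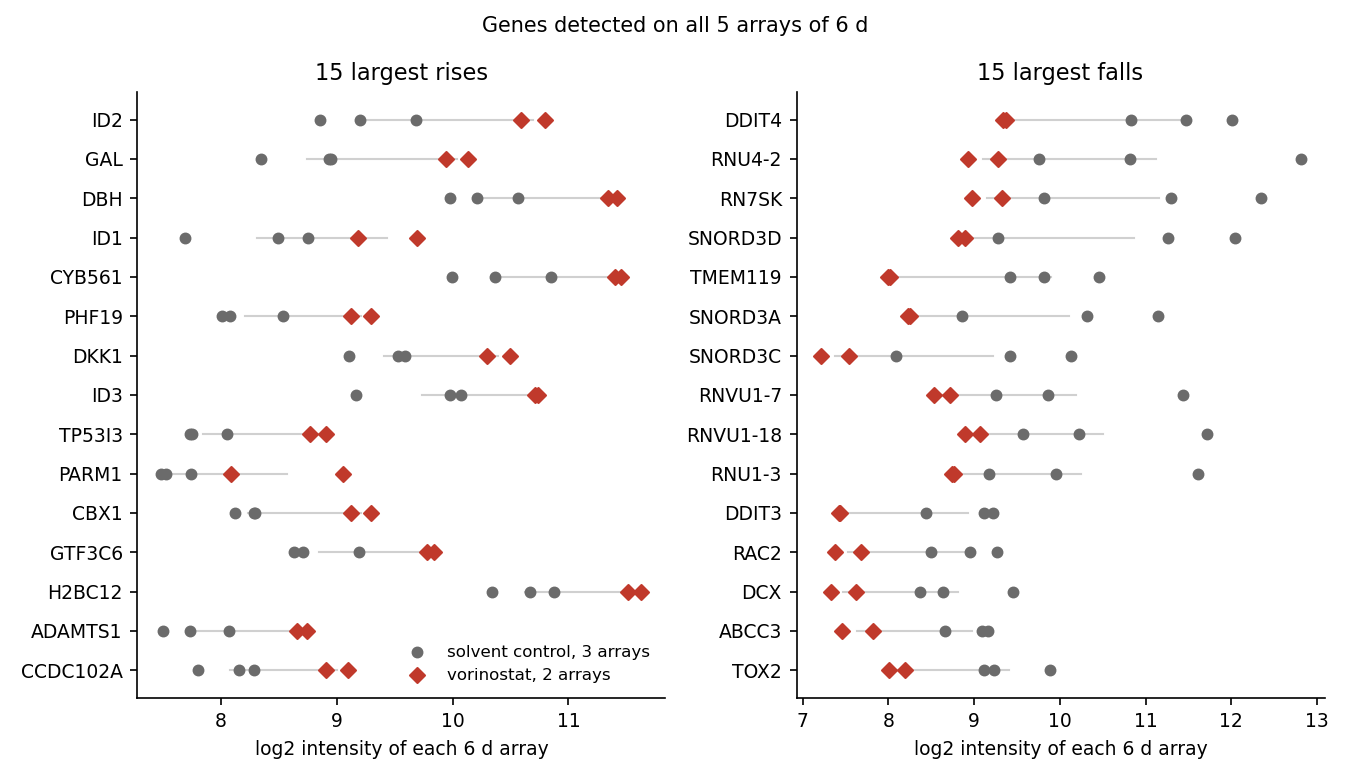
Log2 intensity on each array of 6 d (horizontal axis) for the 15 genes with the largest rise and the 15 with the largest fall among called genes detected on all 5 arrays, circles for the 3 solvent controls, diamonds for the 2 vorinostat arrays and grey lines joining the group means. No gene overlaps between the groups by the rule of the choice, and the solvent values of the small RNAs span more than those of DDIT3 (8.43 to 9.22) or TMEM119.

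Of 36 measured genes of DNA replication and nucleotide supply 11 were called higher (30.6%, beside 4.39% of all genes) and 1 lower (8.21% of all genes). TYMS (thymidylate synthase) read 10.23, 9.98 and 10.71 against 11.21 and 11.04 (0.82 ± 0.15, adjusted p = 0.0026). FEN1, the flap endonuclease of lagging-strand synthesis, read 10.15, 10.19 and 10.80 against 11.19 and 11.03 (0.73 ± 0.16, adjusted p = 0.0061). MCM5, a subunit of the replicative helicase, read 9.15, 9.31 and 9.64 against 10.10 and 9.92 (0.64 ± 0.13, adjusted p = 0.0045). Solvent replicate 3 was the nearest of the solvent arrays to vorinostat in each of these genes. DUT, which removes dUTP, was at 0.61, with other probes at 0.59 and, not called, at -0.24. The fall was that of GINS4 (-0.52). The median of the list was 0.23, and 31 of the 36 differences were above 0. A single rise was left without vorinostat replicate 2, and 6 without replicate 3 or without solvent replicate 1. Mitosis genes did not share this, with 1 rise (BIRC5, 0.43), 1 fall (NEK2, -0.37) and a median of -0.05 over 34 genes. CCND1 (cyclin D1, 0.69) was the only call among 14 CDK inhibitors and G1 cyclins, and it was lost without vorinostat replicate 2.

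Ribosome biogenesis and proteasome genes mostly differed upward, with 28 of 32 and 27 of 31 differences above 0, though few were called. Of 32 ribosome biogenesis genes 4 were higher and 0 lower (12.5%, beside 4.39% of all genes, median 0.23), namely MRTO4 (0.50), NOP2 (0.40), NOP56 (0.37) and NME1 (0.36), and none was called without solvent replicate 1 or without either vorinostat array. Of 31 proteasome subunits 4 were higher and 0 lower (12.9%, median 0.19), led by PSMD1 (0.60) and PSMC3 (0.50), with 1 rise left without vorinostat replicate 2 and 0 without solvent replicate 1. Ribosomal proteins of the cytosol had a median of 0.01 over 73 genes, with 1 rise (RPL34, 0.72) and 3 falls (RPL37, -0.81). Their probes can read pseudogene copies. Of 76 mitochondrial ribosomal proteins 4 rose (MRPL15 and MRPL1, both 0.49) and of 71 respiratory chain and ATP synthase subunits 5 rose (NDUFA6, 0.55, and NDUFB11, 0.45), shares of 5.3% and 7.0%, close to the 4.39% of all genes. In cholesterol synthesis 3 of 21 rose (14.3%), ACAT2 (0.78), IDI1 (0.64) and NSDHL (0.55), with a list median of 0.19 and 0 to 1 rise without either vorinostat array or without solvent replicate 2.

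Small noncoding RNAs held many of the largest falls. RNU4-2, the U4 RNA of the spliceosome, read 10.81, 12.81 and 9.76 in solvent and 9.28 and 8.92 in vorinostat (-2.02 ± 0.51, adjusted p = 0.014). RN7SK, which holds the elongation factor P-TEFb inactive, read 11.30, 12.35 and 9.82 against 9.33 and 8.97 (-2.01 ± 0.42, adjusted p = 0.0055), and its other probe read -2.32. SNORD3D, a U3 RNA of ribosomal RNA processing, read 11.26, 12.04 and 9.28 against 8.90 and 8.82 (-2.01 ± 0.46, adjusted p = 0.0090). Solvent replicate 2 was the highest and replicate 3 the lowest solvent array in all 3, and replicate 3 was less than 1 above the higher vorinostat array. Further U3 genes, SNORD3A (-1.86) and SNORD3C (-1.84), and U1 genes, RNVU1-7 (-1.56), RNVU1-18 (-1.52) and RNU1-3 (-1.49), fell too. Copies of these RNAs are nearly identical, so their probes cannot be taken as separate genes. Of 129 measured small RNAs 12 were lower and 0 higher (9.3%, beside 8.21% of all genes), and the medians of all 129 per array overlapped, at 7.40, 7.74 and 7.30 in solvent and 7.24 and 7.40 in vorinostat. By count, 1 fall was left without vorinostat replicate 2, 4 without replicate 3 and 24 without solvent replicate 3. These RNAs carry no long poly(A) tail, on which such labelling usually relies.

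Matrix and mesenchymal genes fell more often than they rose. Of 17 measured, 6 were lower (35.3%, beside 8.21% of all genes) and 2 higher (11.8%, beside 4.39%), with a median of -0.27. LGALS1 (galectin 1) read 11.92, 12.27 and 11.60 in solvent and 11.24 and 11.17 in vorinostat (-0.72 ± 0.15, adjusted p = 0.0055), and the other falls were those of LUM (lumican, -0.66), ANXA2 (annexin A2, -0.54), COL5A1 (-0.53) and the 2 type VI collagens COL6A1 and COL6A2. The other probes of ANXA2 read -0.10 and -0.07 and were not called. Without vorinostat replicate 2 the list held 2 falls. The protease ADAMTS1 (0.93 ± 0.16, adjusted p = 0.0012) and the inhibitor TIMP1 (0.57) rose. PDGFRB, a receptor of mesenchymal cells, moved with the list, at 10.40, 10.71 and 10.13 against 9.63 and 9.57 (-0.81 ± 0.14, adjusted p = 0.0014), while PDGFRA, PTPRC and PECAM1 were detected on no array. IGFBP5, a binding protein of insulin-like growth factors, fell by 0.66 as the only call of 9 genes of that axis (11.1%, beside 8.21%).

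Further large falls stood outside the lists. TMEM119, a membrane protein known from bone and microglia, read 9.81, 10.45 and 9.42 against 8.02 and 8.0 (3.69-fold lower, -1.88 ± 0.20, adjusted p = 9.4e-05). RAC2, a small GTPase best known in blood cells, read 9.26, 8.96 and 8.49 against 7.38 and 7.68 (-1.38 ± 0.18, adjusted p = 2.2e-04), with PTPRC and CD3E of blood cells on no array. ABCC3, an organic anion exporter, was at 9.10, 9.16 and 8.66 against 7.45 and 7.82 (-1.34 ± 0.19), and TOX2, an HMG-box factor, at 9.23, 9.88 and 9.12 against 8.0 and 8.20 (-1.31 ± 0.18). These 4 kept their call in each of the 15 alternatives other than the methods' analysis of variance. Rises outside the lists that kept their call in the same alternatives were those of PHF19, a subunit that brings polycomb complexes to chromatin (1.00 ± 0.14), CBX1, a heterochromatin protein (0.98 ± 0.13), GTF3C6, a subunit of the RNA polymerase III factor TFIIIC (0.97 ± 0.14), and CCDC102A (0.92 ± 0.14). PHF19 read 8.08, 8.01 and 8.54 against 9.12 and 9.30, while 1 of its other probes stood at 0.07. PARM1 (0.99) rested on vorinostat replicate 2, with 7.53, 7.74 and 7.49 against 9.05 and 8.08, and was at 0.50 without it, not called.

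TXNIP, an arrestin relative that binds thioredoxin and slows glucose uptake, read 11.50, 11.45 and 10.92 in solvent and 10.19 and 9.78 in vorinostat (2.47-fold lower, -1.31 ± 0.17, adjusted p = 1.9e-04). Its relative ARRDC4 was at -0.52, a call lost in 11 of 15 alternatives. TXNIP and ARRDC4 were the calls among 14 genes of the TXNIP, arrestin and thioredoxin list (14.3% lower, beside 8.21% of all genes). Of 16 glycolysis enzymes 4 were lower (25.0%, beside 8.21% of all genes) and 0 higher, ALDOC (-1.01), PFKP (-0.80), ENO2 (-0.39) and HK1 (-0.37, with another probe at 0.04), while the median of the list was 0.07. Of 22 hypoxia response genes 4 were lower (18.2%), among them P4HA2 (-0.89) and PFKFB4 (-0.53), and 1 higher. The glucose transporters parted, with SLC2A1 at 0.69 and SLC2A3 at -0.50. Without either vorinostat array the glycolysis list held 2 falls, and without replicate 2 the TXNIP list held 1 and the hypoxia list 1.

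In chaperones the directions were mixed. HSPH1 (0.52), HSPA1A (0.45), DNAJA1 (0.39) and HSPA8 (0.32) rose and BAG3 (-0.85) and HSPB1 (-0.44) fell among 16 cytosolic heat shock genes. In that list 25% were higher and 12.5% lower, beside 4.39% and 8.21% of all genes. In the endoplasmic reticulum CRELD2 (0.46), CALR (0.44) and SEC61B (0.34) rose and XBP1 (-0.47) fell among 20 (15% and 5%). None of either list was called without vorinostat replicate 2. CALR was also the only call among 7 genes of MHC class I presentation (14.3% higher). Of 13 BCL2 family genes, 3 rose and 3 fell (23.1% each, beside 4.39% and 8.21% of all genes). The rises were the survival factor BCL2 (0.64 ± 0.11, adjusted p = 0.0012) and the death factors BID (0.55, with other probes at 0.42 and -0.08) and BAX (0.45), and the falls BNIP3L (-0.50), BCL2L12 (-0.48) and BCL2L13 (-0.40), with 1 of each left without vorinostat replicate 2. TP53I3, a quinone oxidoreductase, rose by 0.99 ± 0.14 (adjusted p = 3.0e-04), and CCNG1 (cyclin G1, -0.68) and XPC (DNA damage recognition, -0.41) fell. CDKN1A, the inhibitor p21 often raised by HDAC inhibitors, read 7.71, 8.44 and 7.78 against 7.29 and 7.61 and was not called (-0.52, adjusted p = 0.059). JUN (0.67) was the only call among 15 immediate early genes (6.7% higher, beside 4.39% of all genes). KLF factors were called higher in 28.6% and lower in 42.9%, beside 4.39% and 8.21% of all genes. Of 7 KLF factors KLF2 (0.75) and KLF6 (0.40) rose and KLF9 fell by 1.26 (9.85, 10.01 and 9.66 against 8.53 and 8.62, adjusted p = 4.9e-05), as did KLF12 (-0.39, a call lost in 11 of 15 alternatives) and KLF10, which was not detected in vorinostat and was at least 1.54-fold lower. Without vorinostat replicate 2 this list held 0 rises and 1 fall, and without solvent replicate 1 it held 0 and 2.

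Of the genes of autophagy, which the study addressed at 24 h, few were called at 6 d. MAP1LC3A, a protein of the autophagosome membrane, was at 9.76, 10.09 and 9.65 in solvent and 9.13 and 9.28 in vorinostat (-0.63 ± 0.13, adjusted p = 0.0052) and was the only call among 32 genes of the autophagosome machinery (3.1%, under the 8.21% of all genes), lost without vorinostat replicate 2. Of 15 selective autophagy receptors 3 were lower (1 without vorinostat replicate 2), CCPG1 (-0.64, receptor of the endoplasmic reticulum, with a second probe at 0.08), BNIP3L and BCL2L13 (both of mitochondria). The receptor share was 20%, beside 8.21% of all genes, and a second BNIP3L probe read -0.23 and was not called. Of 33 lysosome genes 6 were lower (18.2%, beside 8.21% of all genes) and 2 higher (6.1%, beside 4.39%). CTSH (cathepsin H) read 8.61, 8.73 and 8.47 against 7.48 and 7.70 (-1.01 ± 0.12, adjusted p = 1.0e-04), MANBA was at -0.55, LIPA at -0.50 and NPC2 at -0.47, while the calcium channel MCOLN1 (0.49) and ARSB (0.47) rose, and without vorinostat replicate 2 this list held 3 falls and 1 rise. Among 12 deacetylases the only call was SIRT5 (-0.54), a sirtuin and thus of a class that vorinostat does not inhibit, with a second probe at 0.02. That share was 8.3%, beside 8.21% of all genes. In the histone list H2BC12 read 10.34, 10.67 and 10.87 against 11.63 and 11.52 (0.94 ± 0.12, adjusted p = 2.2e-04), H2BC5 was at 0.55 and H2AJ, a histone H2A variant, at -0.64, with 32 measured. Histone shares were 6.25% higher and 3.1% lower, beside 4.39% and 8.21% of all genes. Of 262 ZNF genes 3 rose and 8 fell (ZNF277, -0.78), both shares under those of all genes, 0 of 4 metallothioneins were called, and SNHG15 (0.65) was the only call of 13 snoRNA host genes.

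**Figure D4:**
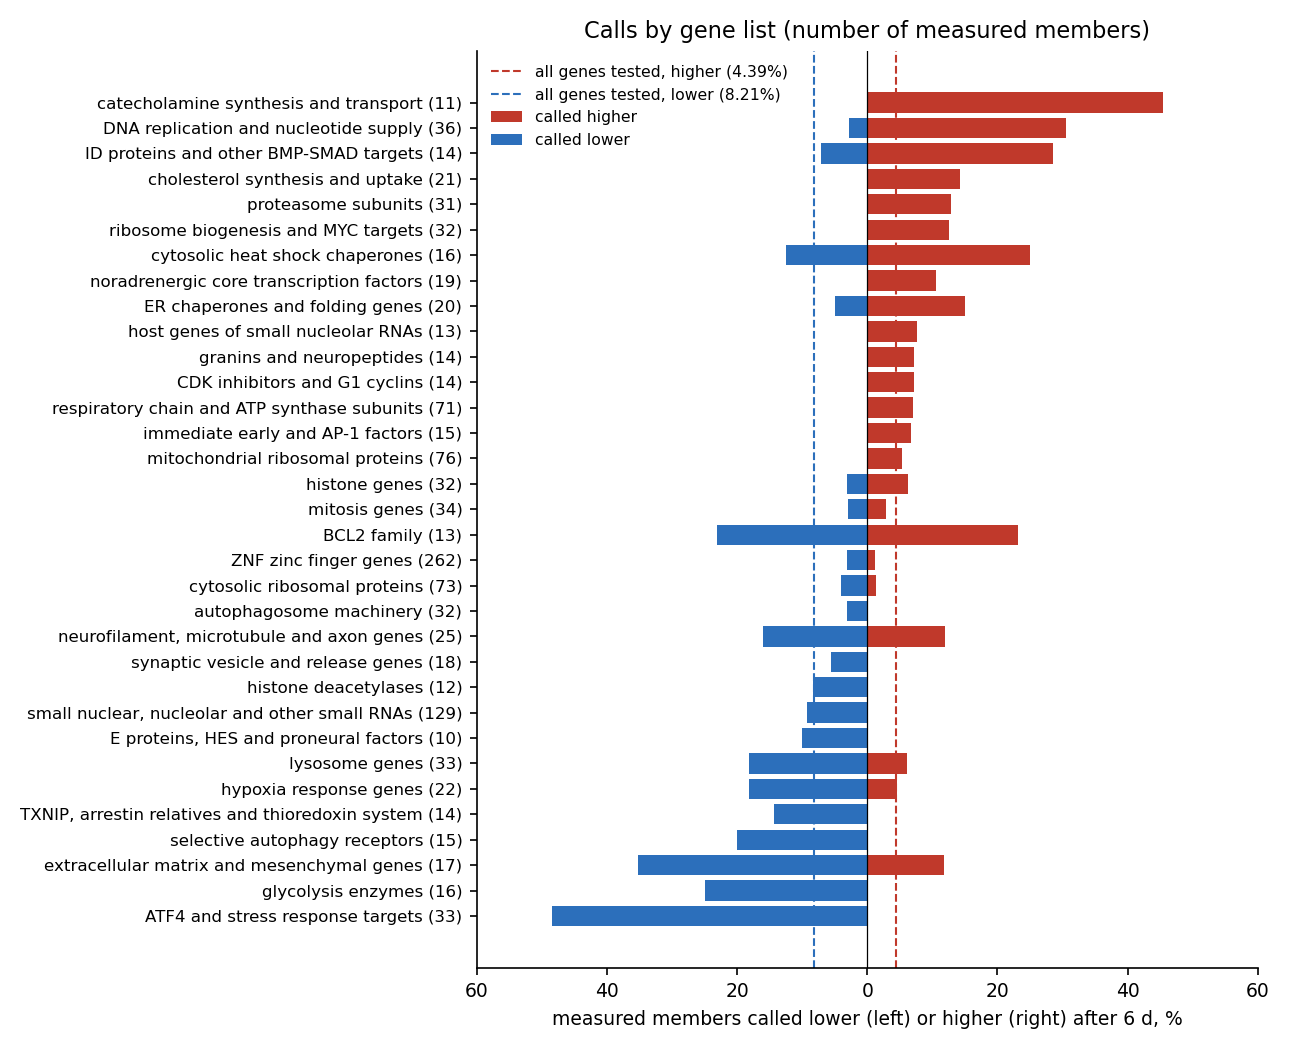
Share of the measured members of each gene list plotted, all with at least 10 measured members, that was called lower (blue, to the left) or higher (red, to the right) after 6 d, in %, with dashed lines at the shares over all genes tested (8.21% lower, 4.39% higher). The ATF4 list stands at 48.5% lower and the catecholamine and replication lists at 45.5% and 30.6% higher, while ZNF genes, ribosomal proteins and mitosis genes lie under the lines on both sides.

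Some changes crossed the limit of detection. On no vorinostat array were 68 of the called falls detected, and on no solvent array 18 of the called rises. For these the lowest detected signal stands in for the dim group, and the change is a bound. MMP9, a matrix metalloprotease, was detected in solvent (7.52, 7.29 and 7.26) and not in vorinostat, at least 1.54-fold lower (adjusted p = 9.4e-05). The GTPase RAB26 was at least 1.76-fold, the WNT inhibitor NKD2 at least 1.76-fold and the transcription factor AKNA at least 1.53-fold lower. In the other direction, the potassium channel KCNH1 was at least 1.23-fold, PDPR (a regulator of pyruvate dehydrogenase) at least 1.33-fold, SLC66A1LP at least 1.32-fold and PRB1 at least 1.20-fold higher. After background correction of the non-normalized intensities the fitted folds were larger, at 4.12 for MMP9, 4.49 for RAB26, 3.94 for NKD2 and 3.27 for AKNA. The calls of AKNA and PDPR were lost without vorinostat replicate 3 (-0.51 and 0.37) and those of KCNH1 and SLC66A1LP without replicate 2 (0.32 and 0.21), and that of PRB1 in 7 of 14 alternatives. Probes of a gene could differ. Of 37 called genes chosen by rule that had other tested probes, 23 had at least 1 that was not called, and in 5 (BID, CCPG1, DUT, HK1 and SIRT5) another probe lay on the other side of 0.

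The changes at 6 d were set against those at 24 h, where solvent and vorinostat lay on separate BeadChips, so that chip and treatment cannot be told apart at that time. The change differed between the times, as a contrast of both differences in the same fit, for 1234 genes that were higher (12.7%) and 1857 that were lower at 6 d (19.2%). Among them were 353 of the 426 called rises and 716 of the 796 called falls. Across genes the changes were inversely related (Pearson r = -0.49, Spearman rho = -0.46, over 9697 genes, which are not independent replicates, with no arrays in common). Of 680 genes called at both times, 628 moved in opposite directions, 427 of them lower at 6 d and higher at 24 h and 201 the reverse, and 52 moved alike. TMEM119 was at 1.56 at 24 h against -1.88 at 6 d, RAC2 at 1.58 against -1.38, DCX at 1.33 against -1.34, GAL at -0.85 against 1.29 and GTF3C6 at -1.35 against 0.97. DKK1 (1.28 at 24 h) and CCDC102A (1.64) rose at both times, and SLC7A5 (-0.55) and SLC3A2 (-0.62) fell at both.

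Levels in the 4 groups were set side by side. DDIT4 averaged 8.75 in solvent and 8.41 in vorinostat at 24 h, beside 9.35 in vorinostat and 11.44 in solvent at 6 d. DDIT3 averaged 7.47 and 7.41 at 24 h and 7.43 in vorinostat at 6 d, beside 8.92 in solvent at 6 d. TXNIP averaged 9.66 and 9.64 at 24 h and 9.99 in vorinostat at 6 d, beside 11.29 in solvent at 6 d. For these 3 genes the solvent cultures of 6 d were the group that stood apart, and the same held for ID2, where the means were 11.10 and 11.30 at 24 h, 10.69 in vorinostat and 9.25 in solvent at 6 d. Over all called genes the mean of vorinostat at 6 d lay nearer to the solvent mean of 24 h than did the solvent mean of 6 d for 371 of 426 rises (87.1%) and 717 of 796 falls (90.1%), and for 67.1% of all genes tested. The median shift of the solvent controls from 24 h to 6 d was -0.52 for the called rises and 0.51 for the called falls, and that of vorinostat at 6 d from the solvent of 24 h was -0.03 and 0.01. The times lay on separate BeadChips, so that time and chip cannot be told apart in these shifts. The called genes were also chosen on the solvent values of 6 d, so that part of their shifts and shares is built in by the choice.

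**Figure D5:**
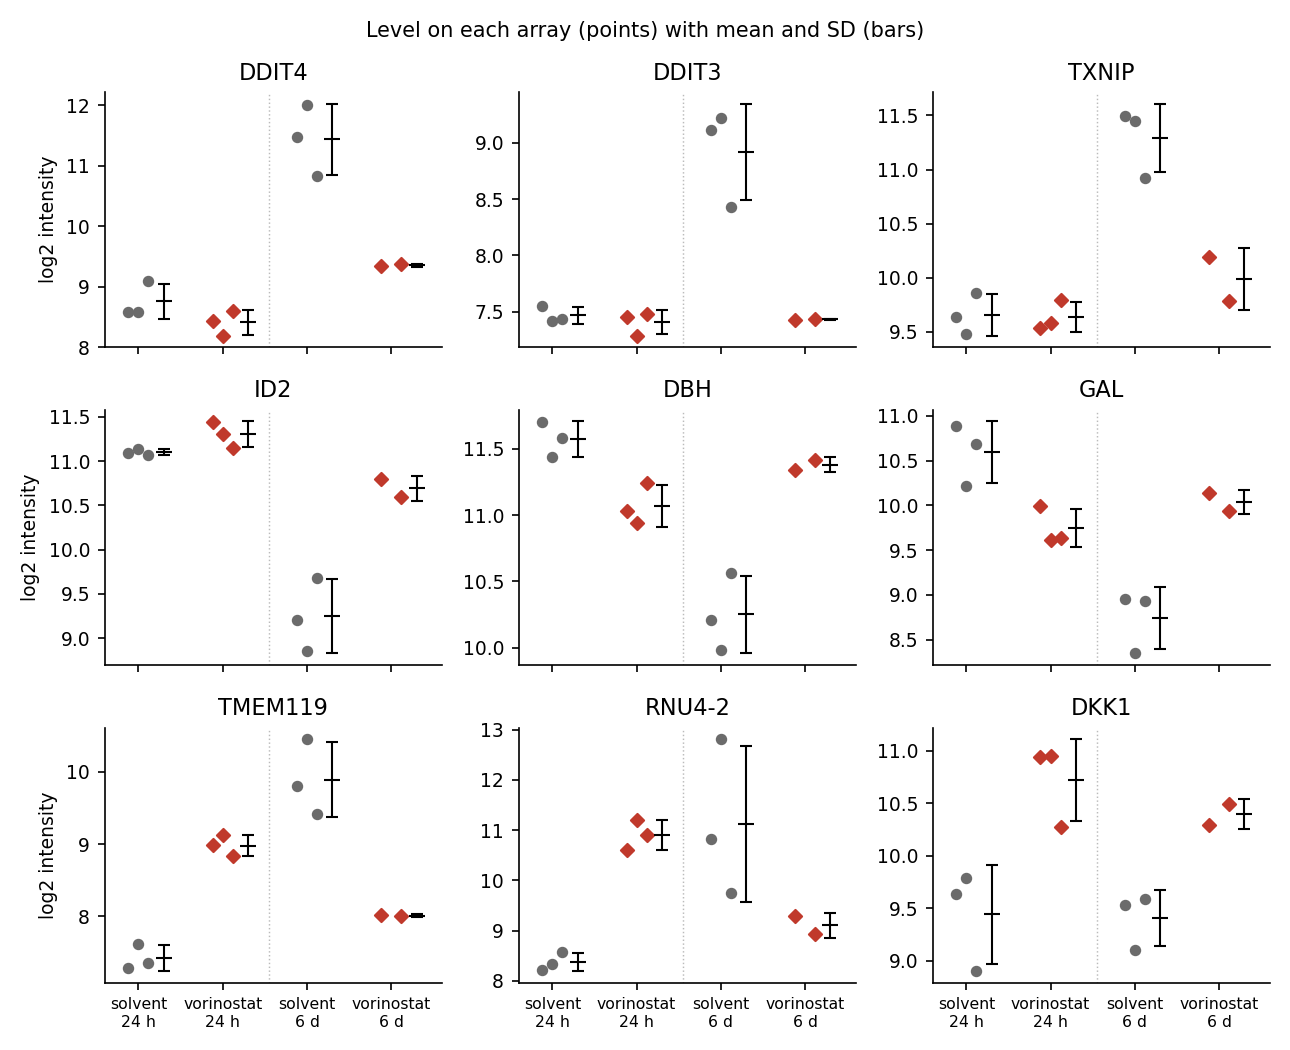
Log2 intensity of 9 genes on each of the 11 arrays (points, circles for solvent and diamonds for vorinostat) with the mean and SD of each group (bars) at 24 h and 6 d. For DDIT4, DDIT3, TXNIP and ID2 the solvent cultures of 6 d stand apart from the other 3 groups, TMEM119 and RNU4-2 are high in vorinostat at 24 h and in solvent at 6 d, and DKK1 is higher in vorinostat at both times.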

How the data were processed

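Intensities of 11 Illumina BeadChip arrays were used, 5 of them of 6 d. One table deposited by the authors holds intensities before normalization, each with a detection p-value, and another holds their intensities after normalization in BeadStudio, by a method not named in the sources used here. The tables name probes differently, and all 48107 probes were paired as mutual nearest neighbours by their values over the arrays. Of these, 30113 carry 1 gene symbol in the platform annotation, 8 several and 17986 none. Array medians of the normalized table (107 to 112) show that background remained in the values.

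Log2 values were fitted with limma 3.58.1 (lmFit, eBayes with trend, R 4.3.3) for 4 groups over all 11 arrays. Detection asked for a detection p under 0.01 and a signal above the median of the array's probes with a detection p over 0.9, and a probe was tested if detected on every array of 1 group of 6 d. The brightest such probe stood for a gene, and 2369 genes had several. A change of a gene detected on no array of a group is given as a bound, from the higher of that array's lowest detected signal and the probe's own value. The limma calls, not the bounds, were tested on simulated data with independent noise. Of changes of 0.5 on the log2 scale 55.5% were recovered, and of changes of 1, 97.6%.

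The members and the 42 gene lists were chosen with earlier results of these data known. Named genes were the 15 largest rises and falls among called genes detected on all 5 arrays with no overlap of the groups, 4 bounds in each direction, up to 4 called members of a list in its main direction and 2 in the other, the HDAC inhibitor genes, MYCN and the markers. The other ATF4 members, PTS, COL6A1 and COL6A2 were named after their values were seen. Groups and numbers came from titles, which the descriptions contradict for the number of 2 arrays (solvent replicate 3 and vorinostat replicate 2 at 6 d). No array of the series carries the title of a vorinostat replicate 1 of 6 d. Alternatives covered the source of values, scaling, filters, probe choice, prior, pairing, left-out arrays and the methods' analysis of variance. The counts of 1 gene list are not reported here. Promoters came from RefSeq (GRCh38.p14).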

Additional observations from a re-analysis of the deposited data

Results flagged for a closer look

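The values in this part are the log2 difference at 6 d minus the log2 difference at 24 h, and each passed the test of that difference in limma. Over all genes 1234 were higher and 1857 lower at 6 d than at 24 h. At 24 h each group lay on its own BeadChip, and its part in these differences cannot be told apart from that of the drug.

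Among genes that rose at 6 d and fell at 24 h, the contrast was widest for GTF3C6 (2.32), GAL (2.14), ACAT2 (2.12), PHF19 (2.05), H2BC12 (2.04), TYMS (1.85) and DBH (1.64). In the same class stood TIMP1 (1.51), BID (1.49), TP53I3 (1.46), ZNF428 (1.41), NDUFA6 (1.38), MCM5 (1.38), GFRA2 (1.30), ARSB (1.29), SLC2A1 (1.28), CRELD2 (1.21), SNHG15 (1.21), IDI1 (1.19), PRKAR1B (1.16) and HSPH1 (1.10). Smaller contrasts were those of PSMD1 (1.06), RPL34 (1.06), MRTO4 (1.02), PSMC3 (1.01), MRPL15 (0.99), NOP2 (0.94), MRPL38 (0.91), NSDHL (0.89), DNAJA1 (0.84), NDUFB11 (0.83), UQCR11 (0.79), NOP56 (0.67) and HSPA8 (0.64). Genes that rose at 6 d and were not called at 24 h were PARM1 (1.39), ID2 (1.25), FEN1 (1.08), ID1 (1.03), SLC6A2 (1.02), CBX1 (0.96), PKIA (0.95), ID3 (0.89), CYB561 (0.82), ADAMTS1 (0.79), CALR (0.74) and BIRC5 (0.68), followed by KLF2 (0.66), PSMA2 (0.66), JUN (0.66), HSPA1A (0.65), STMN1 (0.65), DUT (0.61), NME1 (0.61), PSMB3 (0.61) and ZNF668 (0.40). TH (1.45) and H2BC21 (0.78) fell at 24 h and were not called at 6 d.

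Among genes that fell at 6 d and rose at 24 h, small RNAs led, with RNU4-2 (-4.55), RN7SK (-3.50), RNVU1-18 (-3.49), RNVU1-7 (-3.49), RNU1-3 (-3.48) and SNORD3D (-3.14). Of protein-coding genes the widest were TMEM119 (-3.44), LUM (-2.96), RAC2 (-2.96), IGFBP5 (-2.70), DCX (-2.67), ABCC3 (-2.13), NPC2 (-2.08), CTSH (-2.04) and H2AJ (-2.01). Next came KLF9 (-1.96), TOX2 (-1.87), COL5A1 (-1.87), BCL2L12 (-1.77), P4HA2 (-1.77), ALDOC (-1.76), LGALS1 (-1.75), CCPG1 (-1.70), MAP1LC3A (-1.57), SLC2A3 (-1.47), PDGFRB (-1.45), ZNF277 (-1.43), BAG3 (-1.33) and GINS4 (-1.25). BNIP3L (-1.16), SMAD6 (-1.14), LIPA (-1.03), MAPT (-1.02), PFKFB4 (-0.97), KLF12 (-0.87), ENO2 (-0.82), BCL2L13 (-0.79), NEK2 (-0.75) and STMN2 (-0.60) differed by less.

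Genes that fell at 6 d and were not called at 24 h were SNORD3A (-2.69), SNORD3C (-2.58), DDIT4 (-1.74), PCK2 (-1.49), DDIT3 (-1.43), TRIB3 (-1.31), TXNIP (-1.29), MDK (-1.13) and PFKP (-1.08). SIRT5 (-0.85), MANBA (-0.81), ANXA2 (-0.77), CCNG1 (-0.75), ARRDC4 (-0.71), ZNF275 (-0.69), ZNF609 (-0.67), ZNF256 (-0.62), HSPB1 (-0.62) and XPC (-0.61) belonged there too. CDKN1A (-0.95) was called at neither time. CCDC102A (-0.72) rose at both times, by less at 6 d.

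For 9 further genes at least 1 group of each time was detected on no array, so that the contrast is a fitted value between bounds and has no order among genes. These were MMP9 (-2.17), NKD2 (-1.67), RAB26 (-1.37), KLF10 (-0.86) and AKNA (-0.80), all undetected in the solvent of 24 h and the vorinostat of 6 d, and KCNH1 (0.53), PDPR (0.57), PRB1 (0.51) and SLC66A1LP (0.73), all undetected in the solvent of 6 d and in 1 or both groups of 24 h.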

How the results depend on the processing

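The counts of 426 higher and 796 lower genes stayed within 1.5 times under background correction of the non-normalized intensities, quantile or median scaling, other filters, the mean of a gene's probes and no trend. With the arrays of 6 d alone they were 145 and 405, and with the methods' test, an analysis of variance on the 5 arrays of 6 d, 0 and 0 after adjustment (smallest adjusted p 0.241, 1473 genes at an unadjusted p under 0.05, 583 of them higher). Leaving out 1 array gave 105 to 568 higher and 232 to 914 lower genes. With the replicate block, 378 were higher and 680 lower. Only numbers 2 and 3 occur in both groups of 6 d. Deviations from the group means correlated at 0.14 and 0.19 for same-numbered arrays, and at -0.14 and -0.19 for the crossed numbers. With 2 vorinostat arrays the deviations mirror each other, so these values cannot decide whether the arrays were paired. The main fit used no pairing. The counts of genes whose change differed between the times ran from 958 to 1433 (higher at 6 d) and from 1418 to 1972 (lower at 6 d) under the alternatives run, all within 1.5 times. Of the 148 called genes chosen by rule 42 kept the call under each of the 15 alternatives other than the methods' test, and none kept it under that test. Over all alternatives, the methods' test included, the 159 genes chosen by rule, called or not, gave 2531 values, of which 558 lost and 4 gained a call. No called gene changed direction. Among uncalled genes GATA3 (0.15) ranged from -0.072 without vorinostat replicate 2 to 0.36 without replicate 3. ISL1 (-0.02) turned to 0.0039 with median scaling and ranged from -0.10 without vorinostat replicate 2 to 0.071 without replicate 3. MT1X (0.09) ranged from -0.076 to 0.25 in the same order. MYCN (-0.03) turned to 0.071 with the mean of its probes and ranged from 0.0049 without vorinostat replicate 2 to -0.074 without replicate 3. The number of arrays limits the precision, and small differences can be missed.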
